A study of Mus musculus with 12 samples.

Results

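Slc27a1, Slc27a3 and Slc27a4 are 3 genes of the fatty acid transport protein family, here described by the N6-methyladenosine (m6A) signal on their mRNA in HT22 cells with and without mesaconitine (MA), an alkaloid of Aconitum plants. All rows of the peak table and of the expression table that carry 1 of these gene names were taken. The peak table listed 5 such peaks of 2643, of which 4 lay on Slc27a1, 1 on Slc27a4 and 0 on Slc27a3. The expression table listed all 3 genes of 25239. The peak table is that of the authors' differential m6A comparison and holds fewer peaks than the paper reports. To have a peak here means to have 1 among these 2643. The genes were chosen by measured values of the same comparison of MA with control, so what follows describes them and tests nothing.

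HT22 is an immortalized mouse hippocampal neuron line, labelled as hippocampus and wild type. The study set 3 anti-m6A immunoprecipitation (IP) and 3 input libraries of cells exposed to 800 μM MA for 72 h beside 3 IP and 3 input libraries of untreated control cells, 12 libraries in 4 groups. All groups come from 1 cell line with no transgene named in the labels, so they model cultured cells and not hippocampal tissue. The peak table holds 1 column of reads for each of the 4 groups, so no spread between replicates could be given. How the 3 replicates were combined is not given in the sources used here. The columns were taken to be sums of reads, an assumption on which every interval here rests, and the intervals cover counting error only.

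The proteins of this family carry long-chain fatty acids into cells and join them to coenzyme A, which traps them for oxidation or storage. FATP1, the product of Slc27a1, is known from muscle and fat, where insulin raises fatty acid uptake through it. FATP4, the product of Slc27a4, is known from the intestine and the skin barrier, and FATP3, the product of Slc27a3, mainly as an acyl-CoA synthetase. The m6A mark is written onto mRNA by a methyltransferase complex that includes METTL3 and METTL14, is removed by FTO and ALKBH5, and is read by YTH proteins that alter the stability and translation of the transcript.

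The 4 Slc27a1 peaks carry the main pattern, and their exonic sequences are shown to place them and to mark the letters that m6A enzymes are known to prefer. Coordinates are those of mm10, and the exons and sequences are those of the longest coding transcript of Slc27a1 in GENCODE M21, which has 14 exons and 2795 bases with the coding sequence at bases 206 to 2146. The first peak, chr8:71579654-71579703 on the plus strand, lay in exon 4. The second, chr8:71579729-71580011, ended in exon 5 and held 70 bases of exon 4 and 105 bases of exon 5. The third, chr8:71584506-71584641, held 41 bases of exon 10 and 9 of exon 11. The fourth, chr8:71584667-71584862, held 104 bases of exon 11 and 21 of exon 12. Each is written from 5′ to 3′ along the mRNA with introns left out, and capitals mark each match to the RRACH motif, which reads A or G, A or G, A, C, and then A, C or T. Only the transcribed strand was searched.
Slc27a1 peak 1: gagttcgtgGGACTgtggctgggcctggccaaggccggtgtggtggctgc
Slc27a1 peak 2: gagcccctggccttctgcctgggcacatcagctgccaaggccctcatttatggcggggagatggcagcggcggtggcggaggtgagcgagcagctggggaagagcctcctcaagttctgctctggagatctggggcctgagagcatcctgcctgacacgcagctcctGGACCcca
Slc27a1 peak 3: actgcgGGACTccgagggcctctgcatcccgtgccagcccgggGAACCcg
Slc27a1 peak 4: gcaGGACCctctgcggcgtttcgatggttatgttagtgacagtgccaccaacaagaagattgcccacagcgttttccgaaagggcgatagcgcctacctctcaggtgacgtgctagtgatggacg

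All 4 Slc27a1 peaks lay inside the coding sequence, with their middles 1498, 1361, 623 and 511 bases before its end. Of the 2458 peaks placed on coding transcripts, 1411 (57.4%) lay in coding sequence. The exonic lengths of 50, 175, 50 and 125 bases are multiples of 25, as were those of 98.7% of the 2455 peaks with both ends in exons, 39.8% of which were 50 bases long. The peaks formed 2 close pairs, since 25 transcript bases separate the first from the second and the third from the fourth, while 625 bases of transcript and 4494 bases of genome separate the pairs. No other annotated gene lies within any of them, and none of their stretches of 50 bases was found in a transcript of another gene.

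Each of the 4 peaks held an RRACH match. GGACT, a form that the m6A writer is known to favour, stood at base 10 of the first peak and at base 7 of the third, and the third held GAACC at base 44 as well. The second and the fourth peaks held GGACC, at base 168 and at base 4. An RRACH match was present in 63.8% of placed peaks, in 49.5% of the 976 peaks of 50 bases and in 88.4% of the 388 peaks of 125 or 175 bases. GGACT was found in 8.92% of placed peaks and in 5.23% of those of 50 bases. A match is a description of letters and not a mapped m6A site.

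The IP reads of the first peak were below its input reads in control and far above them in MA. In control it held 184 input and 77 IP reads, and in MA 121 input and 427 IP reads. The ratio of IP to input of each peak was set against that of the median peak in the same condition, since the IP columns differ in total, and is given on the log2 scale. For the first peak this ratio was -1.19 (95% counting interval -1.57 to -0.80) in control and 0.98 (0.69 to 1.27) in MA. The change was 2.17 (1.69 to 2.65), or 4.49-fold higher in MA, and 47 of the 2467 peaks with at least 10 reads in every group had a higher change. The share of reads that were IP reads went from 29.5% (exact binomial interval 24.0 to 35.4) to 77.9% (74.2 to 81.3). These shares are not centred. Before centring, the log2 IP/input ratio of the median peak was itself higher in MA, at 0.83 against -0.07 in control.

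The second peak had the widest contrast. Its reads were 72 in control input, 11 in control IP, 21 in MA input and 196 in MA IP. In control its ratio of -2.59 (-3.49 to -1.69) was the lowest of the 2467 peaks, and in MA its ratio of 2.36 (1.72 to 3.0) was the highest. Its change of 4.95 (3.84 to 6.05), 30.9-fold higher in MA, was therefore the highest of all 2467. This peak was the member with fewest control IP reads, so its change has the widest interval of the 5 member peaks. With 11 control IP reads it stood just above the read minimum, on which these ranks rest. A peak on Gmeb1 fell under the minimum, with 21, 6, 2 and 49 reads in the same order. The Gmeb1 change of 5.13 and MA ratio of 3.47 were both higher.

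The third peak resembled the first. In control it held 158 input and 74 IP reads, and in MA 120 input and 388 IP reads. Its ratio went from -1.02 (-1.42 to -0.63) in control to 0.85 (0.56 to 1.15) in MA, a change of 1.88 (1.38 to 2.37) or 3.68-fold higher. A higher change was seen at 73 peaks.

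The fourth peak differed in the other direction. In control it held 52 input and 87 IP reads, and in MA 56 input and 58 IP reads. The ratio was 0.80 (0.31 to 1.30) in control and -0.78 (-1.31 to -0.26) in MA. The change was -1.59 (-2.31 to -0.86), 3.0-fold lower in MA, and 157 peaks had a lower one. Without centring on the median peak its change was -0.69 (-1.41 to 0.04), an interval that includes 0, because the median peak alone had a change of 0.88. Uncentred changes of the other 3 peaks, in order, were 3.07, 5.85 and 2.78.

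**Figure D1:**
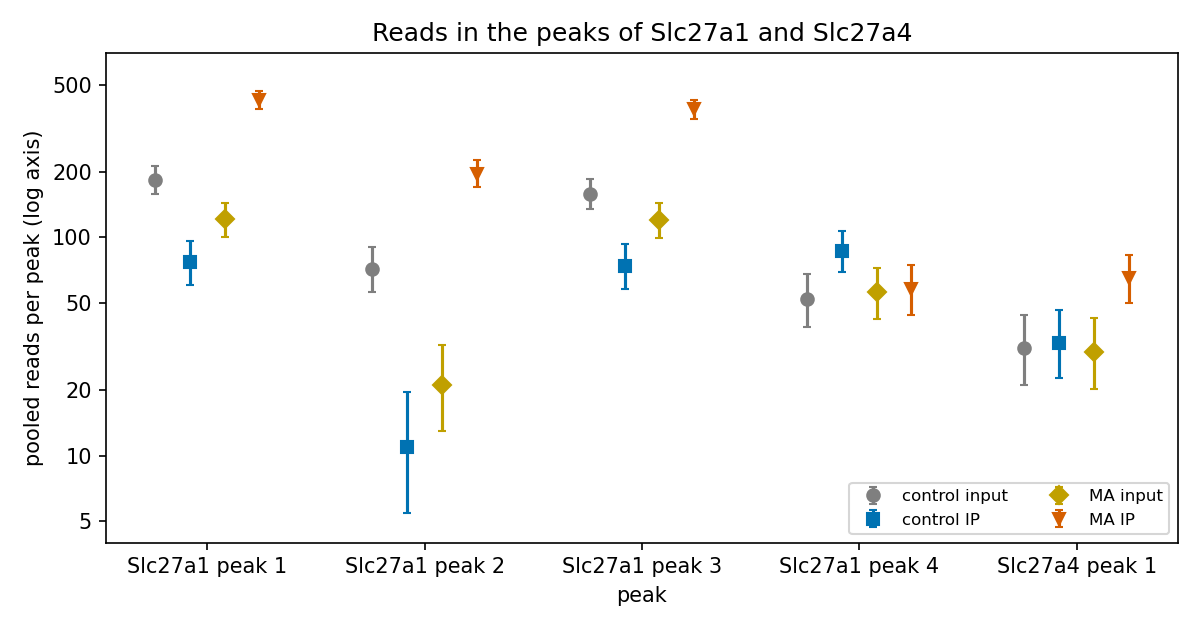
Reads in the 5 member peaks on a log axis, with 1 point for each of the 4 groups (input and IP of control and of MA), each taken as reads pooled over 3 libraries, and bars for the 95% Poisson counting interval. In the first 3 Slc27a1 peaks the control IP column is the lowest and the MA IP column is the highest, while in the fourth the control IP column, at 87 reads, is the highest.

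Of the 5 member peaks, 3 were more than 2-fold higher in MA and 1 was more than 2-fold lower. Over all 2467 peaks, 345 (14%) were more than 2-fold higher and 356 (14.4%) more than 2-fold lower. Without centring, 1096 were higher and 93 lower. The members were picked on this contrast, so nothing is read from their count beside these shares.

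The choice of peaks in the table bears on every ratio above. With the reads of both groups added, no peak of the 2643 had fewer IP than input reads, the lowest log2 ratio being 0.02 and the median 0.48. The Slc27a1 peaks had 0.72, 1.15, 0.73 and 0.43 in order. A peak with less IP than input in both conditions is thus absent from the table. The 23 peaks with a control ratio below -1, the first 3 Slc27a1 peaks among them, all had an MA ratio above 0 and all were more than 2-fold higher. Over the 2467 peaks the control and MA ratios had a Spearman's rho of -0.66, which is a description of points selected together in this way.

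**Figure D2:**
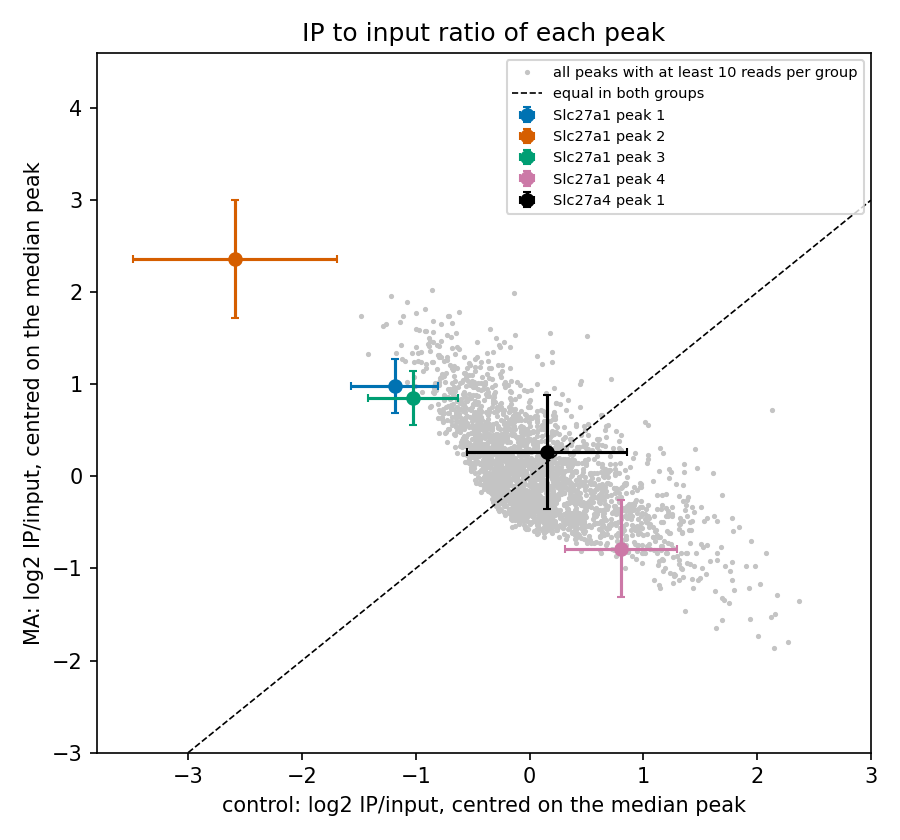
Log2 IP/input ratio in MA (vertical) against control (horizontal), both centred on the median peak, with 1 grey point for each of the 2467 peaks and coloured points with 95% counting intervals for the 5 member peaks. The second Slc27a1 peak stands at the upper left, away from all other points, at -2.59 in control and 2.36 in MA. The first and the third lie close together at the edge of the grey points, and the fourth lies below the dashed line of equal ratios.

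The input and IP columns were then read apart. The input of Slc27a1, read only within its 4 peaks, held 466 control and 318 MA reads when these were summed. Its log2 ratio of MA to control was close to that of the median peak, at -0.11 after centring. The single peaks differed in this ratio, as given below. Neither a change nor a lack of change in the mRNA is read from the sum. The lower MA count stood beside a lower input total over all peaks, 214778 reads in MA against 288659 in control. By the paper's methods the RNA was taken from a set amount of total RNA. These counts therefore do not measure the number of cells or the RNA per cell. The summed IP reads were 249 in control and 1069 in MA, a centred log2 ratio of 1.64. The change in the summed IP to input ratio was 1.75 (1.46 to 2.04), 3.36-fold higher in MA, and the median of the 4 single changes was 2.02.

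The input was uneven along the transcript. Centred log2 ratios of MA to control input were -0.16 (-0.49 to 0.17) at the first peak and 0.05 (-0.29 to 0.39) at the third, both intervals including 0. At the second peak the ratio was -1.31 (-2.0 to -0.62), and 20 peaks had a lower one. At the fourth it was 0.55 (0.01 to 1.09). In the IP columns the ratio of MA to control was 2.0 (1.65 to 2.35) at the first peak, 3.63 (2.78 to 4.49) at the second, 1.92 (1.56 to 2.28) at the third and -1.04 (-1.52 to -0.56) at the fourth. The changes of the first and the third peaks thus lay almost wholly in the IP reads, while those of the second and the fourth were made up of IP and input differences of opposite sign.

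**Figure D3:**
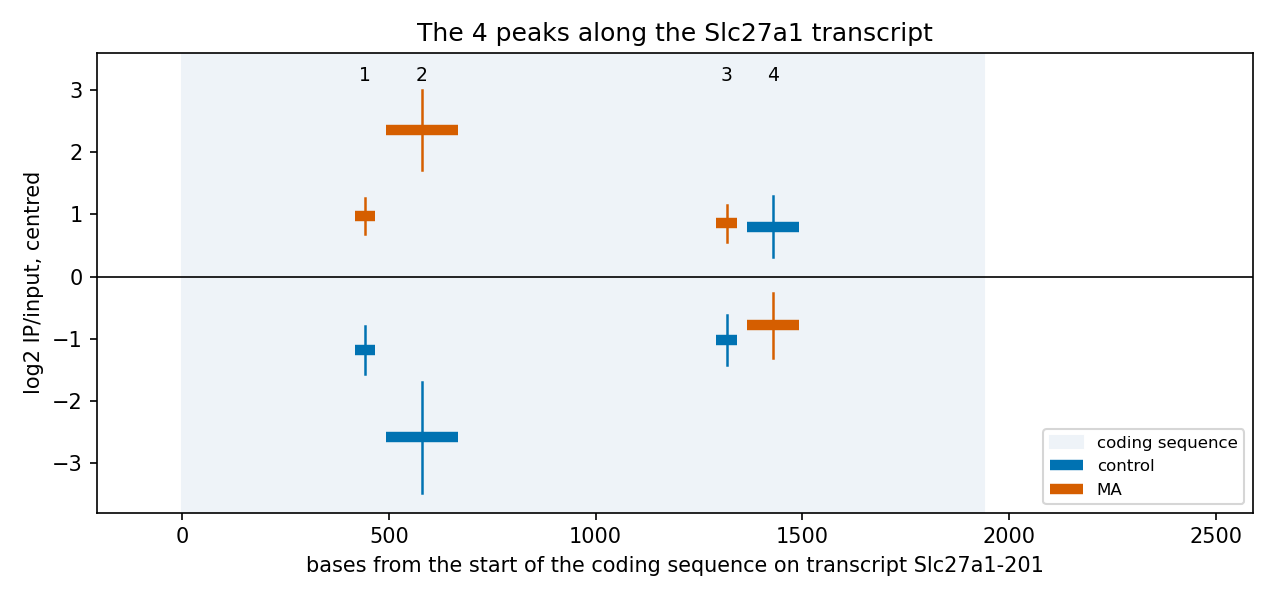
Map of the longest coding transcript of Slc27a1 in bases from the start of the coding sequence, with the coding sequence shaded and, across the width of each of the 4 numbered peaks, the centred log2 IP/input ratio in control and in MA with 95% counting intervals. Control lies below MA at the first 3 peaks and above it at the fourth, and each pair of neighbouring peaks is 25 bases apart.

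Neighbouring Slc27a1 peaks differed from each other by more than their counting error, if the reads of the 2 peaks are taken as independent. The first change was lower than the second by 2.78 on the log2 scale (-3.99 to -1.58), and the third was higher than the fourth by 3.46 (2.59 to 4.34). Over all 149 pairs of peaks on 1 transcript at most 100 bases apart, from 137 genes, the median difference was 0.51 and the 90th percentile 1.70. These 2 Slc27a1 pairs had the largest differences of the 149, followed by a pair on Tyw1 with 2.52. Slc27a1 was chosen by values of this contrast, so its place among the pairs is a description only. In 50 of the 149 pairs the changes had opposite signs, and in 1, the third and the fourth peaks of Slc27a1, they were past 2-fold in opposite directions. The IP fragments, by the study's methods, are longer than the 25 bases between these peaks, and how a fragment that reaches both was counted is not given in the sources used here.

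Over the 14 genes with at least 4 peaks past the read minimum, Slc27a1 had the widest range of change, 6.54 from its lowest to its highest peak. Nipa2 followed with 4.48, the median was 1.99, and Lnpk had the lowest range with 0.71. The place of Slc27a1 is again a description only, since it was chosen by values of this contrast. The range of Slc27a1 was set by its second and the fourth peaks, which had fewer reads than the first and the third, 300 and 253 in the 4 groups against 809 and 740.

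**Figure D4:**
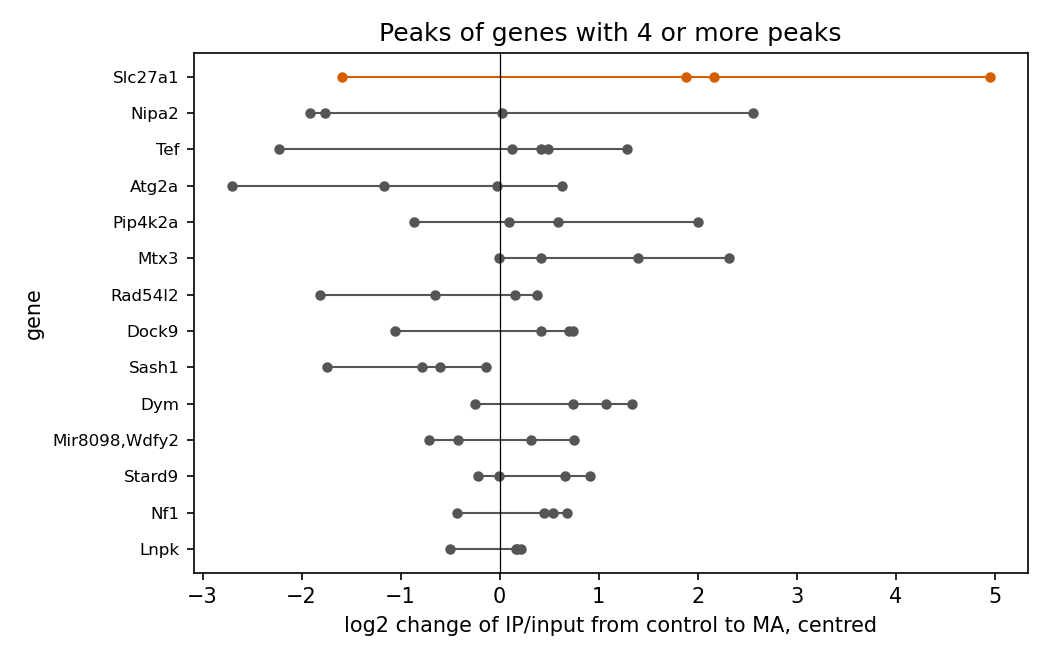
Change in centred log2 IP/input ratio from control to MA of each peak (points) on the 14 genes with at least 4 peaks past the read minimum, joined by a line from lowest to highest. Slc27a1 runs from -1.59 to 4.95, wider than Nipa2 with -1.92 to 2.56.

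The first 3 Slc27a1 peaks were rich in G and C, at 70.0%, 65.1% and 74.0% in order, against a median of 52.0% over placed peaks. They stood above 95.1%, 89.8% and 97.6% of placed peaks. The fourth, at 55.2%, was nearer the median and stood above 61.3%. Over 2292 peaks the GC share and the change had a Spearman's rho of 0.03, given as a description of peaks that share libraries. Among the 245 peaks with at least 65% GC the median change was 0.13, with 20.4% more than 2-fold higher and 13.5% more than 2-fold lower. The part of GC content in the values of Slc27a1 was not tested further.

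Peaks on other genes came close to the first Slc27a1 peak, the one with most reads, in 3 measures together, the control ratio, the MA ratio and the input ratio of MA to control. Likeness was the distance over these 3 log2 values for the 4 groups. The nearest was a peak on Slc25a40, a mitochondrial carrier gene, at a distance of 0.03, with 83 input and 34 IP reads in control, 55 input and 197 IP reads in MA, and a change of 2.21. Atp2c1, a calcium and manganese pump of the Golgi, followed at 0.31, Ccl25, a chemokine, at 0.39, Clcn4, a chloride and proton exchanger, at 0.42, and Zfp553, a zinc finger gene, at 0.43. Their changes were 1.86, 1.64, 1.86 and 2.51. The change is the difference between the MA and control ratios, so its closeness at all of these peaks follows from how they were chosen. The third Slc27a1 peak stood at 0.29, with 1 closer peak on another gene, while the second stood at 2.28 and the fourth at 2.75.

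Slc27a4 had 1 peak, chr2:29816194-29816243 on the plus strand, in the last of the 13 exons of the longest coding transcript, which has 4054 bases. It lay in the 3′ UTR with its middle 485 bases past the end of the coding sequence, unlike the Slc27a1 peaks. Its 50 bases held 1 RRACH match, GGACA at base 26, and the 25 bases around it are shown with the match in capitals.
Slc27a4 peak 1: ggggaaaagaGGACAgcatgtggcc

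The Slc27a4 peak held 31 input and 33 IP reads in control and 30 input and 65 IP reads in MA, in total 159 and so fewer than any Slc27a1 peak. Its centred ratio was 0.15 (-0.55 to 0.86) in control and 0.27 (-0.35 to 0.89) in MA. The change of 0.11 (-0.82 to 1.05) included 0 within counting error, and 1383 of the 2467 peaks (56.1%) had a lower one. Such an interval includes a value 2-fold higher in MA but not one 2-fold lower. Before centring the change was 1.01 (0.08 to 1.95), close to the 0.88 of the median peak. Its input ratio of MA to control was 0.40 (-0.32 to 1.12).

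The level of the family members in these cells was read from the base mean, the authors' mean of normalised counts pooled over libraries, divided by the length in kilobases of the longest coding transcript. Slc27a1 (ENSMUSG00000031808.7, chromosome 8, 71568927 to 71586708, plus strand) had a base mean of 822, or 294 per kilobase. Slc27a4 (ENSMUSG00000059316.2, chromosome 2, 29802634 to 29817522, plus strand) had 1003, or 247 per kilobase. Slc27a3 (ENSMUSG00000027932.14, chromosome 3, 90385239 to 90389927, minus strand) had 14.0, or 6.19 per kilobase. Slc27a1 and Slc27a4 were thus 1.19-fold apart per kilobase, a ratio that became 1.97 with the median instead of the longest transcript length. Slc27a1 was 47.5-fold and Slc27a4 40.0-fold above Slc27a3, or 74.5-fold and 37.8-fold with median transcript lengths. No spread over libraries comes with a pooled base mean, so whether the levels of Slc27a1 and Slc27a4 differ beyond it cannot be said.

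Among the 16178 genes with a base mean above 0, whose median was 528, 56.7% lay below Slc27a1, 60.1% below Slc27a4 and 25% below Slc27a3. Slc27a3 was the only member with no listed peak, and at a base mean of 14.0 it was also the lowest of the 3. Its absence among the listed peaks does not show that its mRNA lacks m6A. The other family genes were at or near 0. Slc27a5, which encodes the bile acid-CoA ligase of liver, had a base mean of 0.602, or 0.263 per kilobase, while Slc27a2, known from liver and kidney peroxisomes, and Slc27a6, known from heart, were listed at 0.

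**Figure D5:**
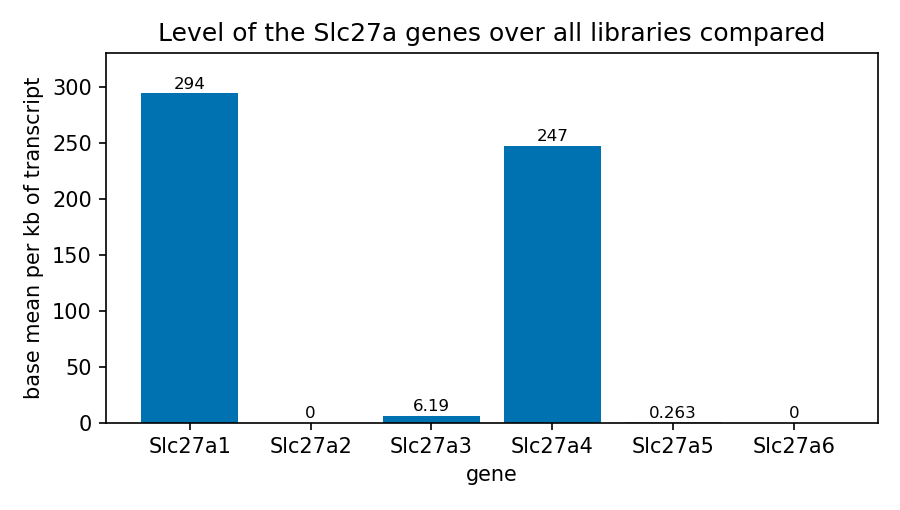
Base mean per kilobase of the longest coding transcript for the 6 genes of the family, with the 3 members in blue and the others in grey. Slc27a1 (294) and Slc27a4 (247) are the tall bars, Slc27a3 stands at 6.19, and Slc27a2 and Slc27a6 are listed at 0.

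Genes of fatty acid uptake and use were counted in 3 lists, where a gene without a listed peak may still carry m6A. Of 18 genes of fatty acid activation and uptake, such as the acyl-CoA synthetases and fatty acid binding proteins, 14 had a base mean above 0 and 9 of at least 100, and 0 had a peak. Of 19 genes of fatty acid oxidation, 18 had a base mean of at least 100 and 2 had a peak. Of 18 genes of lipid storage and release, 14 had such a base mean and 3 had a peak. In all, 41 of these 55 genes had a base mean of at least 100, and 5 of the 41 had a peak. Of all 10438 genes at that level, 1820 (17.4%) had 1 or more, and nothing particular to the lists is read from their count.

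Over all 2467 peaks past the read minimum, 14% were more than 2-fold higher in MA and 14.4% more than 2-fold lower. Of the 4 such peaks on these lists, 1 was more than 2-fold higher in MA and 0 were more than 2-fold lower. It lay in the coding sequence of Pnpla2, the triglyceride lipase that releases fatty acids from lipid droplets, with 91 input and 46 IP reads in control, 36 input and 151 IP reads in MA, and a change of 2.13 (1.40 to 2.86). The peak on Dgat1, which makes triglycerides, had 24, 13, 8 and 47 reads in the same order, under the minimum, and a change of 2.44 (1.02 to 3.87). Lpl, the lipase that frees fatty acids from lipoproteins, had a change of 0.32 (-0.70 to 1.34). In the oxidation list, Echs1, the enoyl-CoA hydratase, had 0.41 (0.04 to 0.78), and Eci1, the enoyl-CoA isomerase, had -0.57 (-0.90 to -0.23). The Pnpla2 and Dgat1 values lay near those of the first and the third Slc27a1 peaks, while those of Lpl, Echs1 and Eci1 did not. No trend of lipid genes is read from them.

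The depth behind these values was modest. Reads in the 2643 peaks summed to 288659 in control input, 267002 in control IP, 214778 in MA input and 359889 in MA IP, with medians of 57, 57, 40 and 81 reads per peak. The median peak had a log2 IP/input ratio of -0.07 in control and 0.83 in MA before centring, so whether that overall difference is depth or m6A cannot be told apart here. The neuron label was checked against 8 markers, of which Tubb3 and Syn1 had base means of 473 and 710, Rbfox3 had 1.15, and Map2, Snap25, Nefl, Nefm and Stmn2 were listed at 0. The fibroblast markers Pdgfra, Col1a1 and Col3a1 had base means of 8906, 100160 and 134804. The 9 markers of astrocytes, microglia and oligodendrocytes reached at most 115, while Actb and Gapdh were listed at 54350 and 893. Most of the neuronal and all of the fibroblast values thus went against the neuron label, while Tubb3 and Syn1 went with it.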

How the data were processed

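MeRIP-seq libraries (IP and input, 3 each of MA-treated and control HT22 cells) were made with a stranded kit with molecular identifiers. The authors used fastp on the reads, HISAT2 for alignment to mm10 and exomePeak2 for peak calling. Tool versions are not given in the sources used here. The deposited peak table gives whole counts of reads per peak, 1 column per group. Whether identifiers were used to remove duplicates there is also not given. The deposited base mean is a normalised signal per gene from the authors' StringTie and DESeq2 run, pooled over libraries, and which libraries it covers is not given. Further columns of both tables hold the authors' own fold changes, methylation ratios, test statistics and p-values, and were not used. The number of unused columns of single libraries was 0.

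For each peak log2((IP + 0.5)/(input + 0.5)) was taken per condition, and its median over the 2467 peaks with at least 10 reads in all 4 columns was subtracted. Intervals are 95% Poisson intervals of log ratios, and exact binomial intervals for shares. Their coverage could not be checked against the spread between replicates. They take the deposited columns as sums over replicates, which is not stated, and cover counting error only. A fold of 2 was the limit for counts of peaks. With 1 value per group no test was possible, so the count model planned for single libraries was not run. Peaks were placed on GENCODE M21 (GRCm38). Values were computed in Python 3.11.15 with pandas 2.3.3, numpy 2.4.6 and scipy 1.17.1, and plotted with matplotlib 3.10.9. The rule for named genes was the 3 members with each of their peaks, the other family genes, the genes of 3 lipid lists that had a peak, the 5 peaks nearest to the best covered Slc27a1 peak, and cell type markers. The genes that lead the ranking of near pairs and of genes with 4 or more peaks were named after their values were seen. Members and lists were chosen with earlier results of these data known. Alternatives were a pseudocount of 5, a read minimum of 50 or none, a fold of 1.5, no centring and centring on column totals.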

Additional observations from a re-analysis of the deposited data

How the results depend on the processing

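The change in IP/input ratio of each of the 5 member peaks kept its sign under all 5 alternatives of scaling, pseudocount and read minimum. It ran from 2.13 to 3.07 at the first Slc27a1 peak, 4.39 to 5.85 at the second and 1.85 to 2.78 at the third. At the fourth it ran from -1.62 to -0.69, and at the Slc27a4 peak from 0.08 to 1.01. For these peaks the read minimum altered only the median subtracted, so it moved all 5 changes equally and tested no single peak. The second Slc27a1 peak and the Slc27a4 peak, with groups under 50 reads, kept a value at the minimum of 50. Scaling also moved all 5 changes equally, by construction. Without centring, by its own construction, the changes of the first, the third and the fourth Slc27a1 peaks were 3.07, 2.78 and -0.69, and the MA ratio of the fourth turned from -0.78 to 0.050. Peaks more than 2-fold higher numbered 345, against 1096 without centring, 77 with a minimum of 50 reads and 632 at a fold of 1.5, and those lower numbered 356, against 93, 60 and 634. With T added to the first letter of the motif, matches in the second and the fourth Slc27a1 peaks went from 1 to 2. With median transcript lengths the level per kilobase of Slc27a1 over Slc27a4 went from 1.19 to 1.97 and over Slc27a3 from 47.5 to 74.5. The comparisons of near pairs, of genes with at least 4 peaks and of GC content were added after seeing the data.

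No paired analysis was possible because the read columns hold 1 value per group, and no replicate was left out for the same reason. The control IP count of 11 reads limits the second Slc27a1 peak, and the Slc27a4 peak is limited by 30 to 65 reads a group.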
